A study of Mus musculus with 4 samples.

Results

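The BCL2 family was followed on the arrays through 10 genes: Bcl2, Bcl2l1, Mcl1, Bcl2l11, Bax, Bak1, Bid, Bad, Bbc3 and Pmaip1. Members were taken by name, and every probe set that the platform annotation assigns to 1 of these genes alone was used. This gave 29 of the 45037 probe sets tested, for 9 of the 10 genes, and no probe set named Bax alone, so the level of Bax was not analysed here. Lymph node T-cells sorted as CD4+CD25+ gave 4 samples, 2 of them IL-10+ and the other 2 IL-10-, from C57Bl/6 mice aged 6 to 12 weeks, all given the CD28 superagonist D665 (CD28SA) 3 days earlier. All 4 samples were cultured overnight in IL-2 at 200 U/ml with antibodies to CD28 at 5 µg/ml and to CD3 at 2 µg/ml, then stained for IL-10 and sorted, and each was hybridized to 1 Affymetrix mouse genome array. The samples were gated on CD4 and CD25 and not on Foxp3, and no unstimulated sample was analysed here, so the 2 groups share the antibody, the culture and the cytokine. Nothing states whether samples of a group came from separate mice or sorts, so the p-values rest on the spread between these arrays, and that spread may be technical.

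Proteins of the BCL2 family decide whether the outer mitochondrial membrane is opened, the step that commits most cells to apoptosis. Bax and Bak form the pores, and anti-apoptotic members such as Bcl-2, Bcl-xL and Mcl-1 hold them in check. BH3-only proteins such as Bim, Bid, Bad, Puma and Noxa are the triggers, which bind other members of the family. In T-cells, Bcl-2 and Mcl-1 are known for supporting survival and Bim for removing activated cells, and several of these genes are known to give rise to more than 1 transcript by splicing. The array reads a gene at several places of its transcripts, and the suffix of a probe set's name marks probes shared by alternative transcripts of a gene (a), by transcripts of different genes (s), or matching other sequences in part (x).

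Values below are the deposited ones, read as log2, differences are IL-10+ minus IL-10-, and the words rose and fell are kept for probe sets to which limma gave an adjusted p under 0.05 over all 45037 probe sets. Probe sets of a gene are ranked by their mean over the 4 arrays, and rank 1 is called the brightest. Il10, the gene of the sort, had values of 12.01 ± 0.01 (SD, n = 2) in the IL-10+ group and 10.39 ± 0.03 (SD, n = 2) in the IL-10- group. Of 8 genes of T-cells and regulatory T-cells, 3 rose (Ctla4 by 0.87, Cd4 by 0.51 and Cd3g by 0.41 on the log2 scale), 2 fell (Foxp3 by 0.72 and Ikzf2 by 0.55), and Cd3d, Cd3e and Il2ra did not pass. Of 10 measured markers of B cells and plasma cells, 8 fell and 0 rose in IL-10+ samples (limma, 0 higher also at an unadjusted p under 0.05). Jchain and Mzb1 fell most, by 2.75 each on the log2 scale, and Ighm, with the highest signal of the 10, fell by 0.73. The summed level of the 10 ran from 12.51 to 12.57 on the log2 scale in IL-10+ and from 13.41 to 13.53 in IL-10- samples. Of the others, 3 of 5 markers of CD8 T-cells and NK cells fell, 2 of 9 myeloid markers rose and 1 fell, and none of 3 erythroid markers passed (limma, 1 higher at an unadjusted p under 0.05). Each gene of these lists was read by its brightest probe set, and over the brightest probe sets of all genes 8.37% rose and 22.9% fell. The 5' probe sets of 4 bacterial transcripts added to the RNA were higher in IL-10+ samples by 0.62 to 1.96 on the log2 scale, while their 3' probe sets differed by -0.23 to 0.21. The control probe sets of the cells' own transcripts also differed along the transcript, by 0.88 (5') and 0.02 (3') for Gapdh and by 1.12 (5') and 0.40 (3') for beta-actin. Tables used here do not give the place of a probe set along its transcript, and the part of these shifts in the results below was not tested. In sorted bulk samples, fewer cells that carry a transcript and less of it per cell cannot be told apart.

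Of the 29 member probe sets, 8 rose and 11 fell in IL-10+ cells, against 13.6% higher and 16.2% lower over all probe sets tested. Among the 25% of probe sets with the highest signal, 20.0% rose and 40.8% fell, and of the 21 member probe sets there 5 rose and 9 fell. The 2 IL-10+ arrays did not overlap the 2 IL-10- arrays in 25 of the 29, against 63.0% of all probe sets. With the cutoffs of the methods (an adjusted p under 0.001 and a change of 2-fold or more) 4 rose and 2 fell, where 1.72% and 0.575% of all probe sets did. The median difference was -0.01 over the members and 0.01 over all probe sets.

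By their brightest probe sets, 4 of the 9 genes fell (Bcl2, Bcl2l1, Bak1 and Bid) and 0 rose by limma, with 2 higher at an unadjusted p under 0.05 (Mcl1 and Bbc3), against 22.9% lower and 8.37% higher over the brightest probe sets of all 18193 genes. All 9 lie among the 25% of probe sets with the highest signal, and of the 6645 brightest probe sets there 44.9% were lower and 13.9% higher, so that 4 of 9 was near that share. Without IL-10- replicate 4, 2 rose (Mcl1 and Pmaip1), without IL-10- replicate 3, 1 did (Bbc3), as with dim probe sets filtered out, and after quantile normalization 2 rose (Mcl1 and Pmaip1) and 3 fell. Of the 20 dimmer probe sets, 8 rose and 7 fell, against 20.0% and 13.4% of the 16752 dimmer probe sets of all genes. Of these 20, 12 lie among the 25% of probe sets with the highest signal, where 20.0% rose and 40.8% fell. The median difference was -0.10 for the brightest and 0.10 for the dimmer ones.

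**Figure D1:**
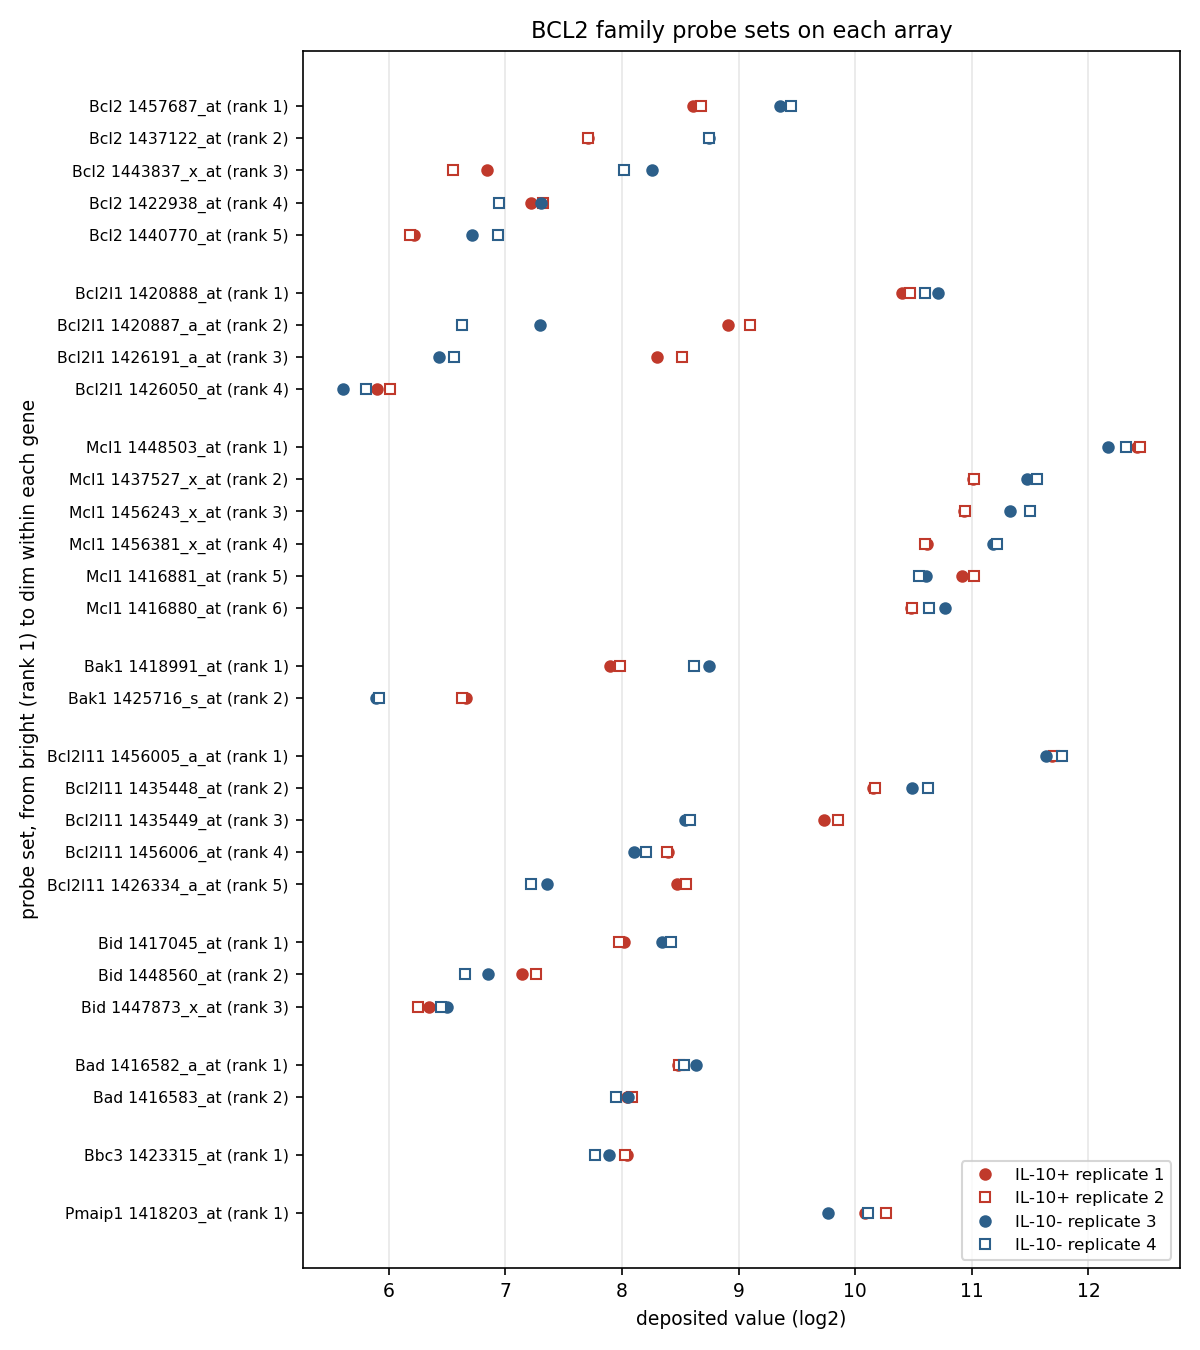
Deposited value (log2, horizontal axis) of the 29 BCL2 family probe sets on each of the 4 arrays, with rank 1 of each gene at the top. The groups are apart for 25 probe sets, and within Bcl2l1, Mcl1, Bak1, Bcl2l11 and Bid the colours change sides from one probe set to another.

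Promoters are shown for Bcl2, 4 of whose 5 probe sets fell, and for Bcl2l11 and Bbc3, known targets of FOXO factors. RefSeq promoters of GRCm38.p6 were taken by symbol for 9 of the 10 members, with 15 starts in all. For the members, starts on 1 chromosome were left out, which the count over all starts kept. Bax was among the 9, and Pmaip1 was not searched. The 250 bases before each start were searched on both strands for the FOXO core GTAAACA and the STAT core TTCNNNGAA. These were found before 3.17% and 7.02% of 32851 RefSeq starts. Among the 9 members searched the FOXO core was found before 1 start each of Bcl2l11 and Bbc3 and the STAT core before none. In the sequences below, 5′ to 3′ along the gene, capitals mark the FOXO core on either strand, 227 bases before the first start of Bcl2l11 and 167 bases before the second start of Bbc3, and the Bcl2 window held neither. For Bcl2l11 and Bbc3 only the start with a match is printed, and their other starts held no match.
Bcl2 (chr1:106714291-106714540, minus strand): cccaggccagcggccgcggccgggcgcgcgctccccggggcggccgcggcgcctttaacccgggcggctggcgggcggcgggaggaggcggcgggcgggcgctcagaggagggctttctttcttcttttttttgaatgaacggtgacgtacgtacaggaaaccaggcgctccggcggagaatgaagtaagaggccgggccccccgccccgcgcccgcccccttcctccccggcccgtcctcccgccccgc
Bcl2l11 (chr2:128125788-128126037, plus strand): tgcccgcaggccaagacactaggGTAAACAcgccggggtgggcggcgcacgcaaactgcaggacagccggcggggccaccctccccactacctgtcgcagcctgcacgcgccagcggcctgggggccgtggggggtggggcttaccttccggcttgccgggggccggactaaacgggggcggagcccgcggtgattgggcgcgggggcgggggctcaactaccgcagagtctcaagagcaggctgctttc
Bbc3 (chr7:16310011-16310260, plus strand): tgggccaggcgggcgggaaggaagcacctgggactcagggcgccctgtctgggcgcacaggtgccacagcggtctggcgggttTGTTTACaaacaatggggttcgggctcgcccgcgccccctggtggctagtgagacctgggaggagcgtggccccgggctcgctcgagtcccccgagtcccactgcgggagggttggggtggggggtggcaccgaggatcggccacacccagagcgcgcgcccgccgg
A match is a description of these letters and not a site.

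The anti-apoptotic genes were read by 15 probe sets, of which 3 rose and 8 fell. Over all probe sets tested 13.6% rose and 16.2% fell, and among the 25% with the highest signal 20.0% and 40.8%. Of the 8 falls 4 were of Bcl2, 3 of Mcl1 probe sets marked x and 1 of Bcl2l1. Bcl2, the founding member of the family, was the gene whose probe sets went most nearly 1 way, with 4 of 5 lower and 0 higher by limma. Its brightest probe set (1457687_at) stood at 8.61 and 8.68 in IL-10+ and at 9.36 and 9.45 in IL-10- samples. Both IL-10+ arrays were thus below both IL-10- arrays, by 0.76 on the log2 scale (standard error 0.07, adjusted p = 0.000182, limma). The second brightest (1437122_at) was the most even of the 5 within groups, at 7.71 and 7.70 against 8.75 and 8.75. This is a 2.06-fold lower value in IL-10+ cells (difference -1.04, adjusted p = 3.49e-05, limma). The probe set marked x (1443837_x_at) had the largest difference of the gene, with 6.85 and 6.55 against 8.26 and 8.02, 2.72-fold lower in IL-10+ cells. The dimmest (1440770_at) fell by 0.63 on the log2 scale. The remaining one (1422938_at) had overlapping groups, with 7.22 and 7.32 in IL-10+ and 7.31 and 6.95 in IL-10- samples, and a difference of 0.14 with a 95% confidence interval of -0.12 to 0.41. With IL-10- replicate 3 left out it was higher (0.32, adjusted p = 0.00637, limma), and it was at -0.04 with IL-10- replicate 4 left out.

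Genes whose brightest probe sets had profiles over the 4 arrays nearest to that of Bcl2, after each was centred on its own mean, were Pam16, Gbp6 and Cpsf3, at Euclidean distances of 0.01 to 0.02 among 11039 genes. With 4 arrays in 2 groups such a likeness mostly restates the size of the group difference, which was -0.76, -0.74 and -0.74 for these 3 genes.

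Bcl2l1 encodes Bcl-xL, which restrains Bax and Bak, and by another splice a short form that promotes death. Its probe sets differed most widely in the family, from a fall of 0.22 to a rise of 2.05 on the log2 scale. The brightest (1420888_at) stood at 10.40 and 10.47 in IL-10+ and at 10.71 and 10.60 in IL-10- samples. The groups were apart, but the fall of 0.22 passed barely (adjusted p = 0.0477, limma) and did not pass after quantile normalization (-0.11, adjusted p = 0.342), without IL-10+ replicate 1 (-0.19, adjusted p = 0.279) or 2 (-0.26, adjusted p = 0.127), without IL-10- replicate 3 (-0.17, adjusted p = 0.116), or with the suffixes x and s left out (adjusted p = 0.0509). The next probe set (1420887_a_at), marked as shared by alternative transcripts, stood at 8.91 and 9.10 against 7.29 and 6.63. It was 4.13-fold higher on the IL-10+ arrays, with the widest spread of any member between replicates (SD 0.47 in IL-10- samples, n = 2). The other one with that mark (1426191_a_at) stood at 8.30 and 8.52 against 6.43 and 6.56, 3.76-fold higher (adjusted p = 1.56e-05, limma). These were the 2 largest rises among the members. A 5' control probe set of the added bacterial RNA dap (AFFX-DapX-5_at) had values near those of 1420887_a_at. It read 9.10 and 9.29 against 7.59 and 6.88, a difference of 1.96. The difference was 0.62 for the 5' control AFFX-LysX-5_at and 0.16 for the 3' control AFFX-DapX-3_at. Whether such a shift has a part in the rise of 1420887_a_at was not tested. The dimmest probe set (1426050_at) differed by 0.25 (adjusted p = 0.0669, limma) and passed without IL-10- replicate 4 (0.35, adjusted p = 0.00441).

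Mcl1 encodes a short-lived inhibitor that sequesters Bak and Bim and was read by 6 probe sets. The brightest (1448503_at) stood at 12.42 and 12.44 in IL-10+ and at 12.17 and 12.32 in IL-10- samples. The IL-10+ arrays were higher, by 0.18 with a 95% confidence interval of 0.01 to 0.35, which did not pass over all probe sets (adjusted p = 0.102, limma) and did without IL-10- replicate 4 (0.26, adjusted p = 0.0188) and after quantile normalization (0.31, adjusted p = 0.00764). All 3 probe sets marked x fell together, by 0.50, 0.48 and 0.59 on the log2 scale. Of these, 1456381_x_at stood at 10.62 and 10.60 in IL-10+ and at 11.19 and 11.22 in IL-10- samples. Since the mark x stands for probes that match other sequences in part, and these 3 share it, they may not be 3 separate readings of the gene. Of the unmarked ones, 1416881_at rose by 0.39 (10.92 and 11.02 against 10.61 and 10.55), and 1416880_at, at 10.48 and 10.49 against 10.77 and 10.63, differed by -0.22 (adjusted p = 0.0539, limma) and passed without IL-10- replicate 4 (-0.29, adjusted p = 0.0106), after median centring (0.0101) and with dim probe sets filtered out (0.0386).

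Bak1, the 1 pore-forming effector measured, had 2 probe sets that moved in opposite directions by nearly the same amount. The brighter (1418991_at) stood at 7.90 and 7.98 in IL-10+ and at 8.75 and 8.62 in IL-10- samples, a fall of 0.74 on the log2 scale (adjusted p = 0.000267, limma). The dimmer (1425716_s_at) stood at 6.66 and 6.62 against 5.89 and 5.91, a rise of 0.74 (adjusted p = 0.000137, limma). Replicates were close in both, so the groups were apart in both and in opposite order. The dimmer one is marked as shared with transcripts of other genes. Nearest to the brighter one in profile were Macrod1, Sugp2 and Eif4ebp2, each at a distance of 0.02 among 11039 genes.

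The BH3-only genes were read by 12 probe sets, of which 4 rose and 2 fell. Over all probe sets tested 13.6% rose and 16.2% fell, and among the 25% with the highest signal 20.0% and 40.8%. Of the rises 3 were of Bcl2l11 and 1 of Bid, and each of these 2 genes gave 1 of the falls. Bcl2l11 encodes Bim, the BH3-only protein that binds all anti-apoptotic members, in several splice forms. Its brightest probe set (1456005_a_at) stood at 11.68 and 11.71 in IL-10+ and at 11.63 and 11.77 in IL-10- samples. The groups overlapped. The difference of -0.01 had a 95% confidence interval of -0.18 to 0.16 and was 0.15 after quantile normalization (adjusted p = 0.121, limma). The second brightest (1435448_at), at 10.15 and 10.17 against 10.49 and 10.62, fell by 0.39 on the log2 scale (adjusted p = 0.00424, limma). The third (1435449_at), at 9.73 and 9.86 against 8.54 and 8.58, was 2.35-fold higher in IL-10+ cells (adjusted p = 2.93e-05, limma). The fifth (1426334_a_at), at 8.47 and 8.55 against 7.35 and 7.22, was 2.33-fold higher. Probe sets of Bim thus rose, fell or did not pass on the same arrays. The fourth (1456006_at) rose by 0.24 and did not pass without IL-10+ replicate 1 (adjusted p = 0.167, limma) or 2 (0.151), without IL-10- replicate 3 (0.0794), or after median centring (0.136).

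Bid encodes the BH3-only protein that caspase-8 cleaves, the link from death receptors to mitochondria. Its brightest probe set (1417045_at) stood at 8.02 and 7.97 in IL-10+ and at 8.34 and 8.42 in IL-10- samples, and fell by 0.38 on the log2 scale (adjusted p = 0.00348, limma). The second (1448560_at), at 7.14 and 7.26 against 6.85 and 6.65, rose by 0.45 (adjusted p = 0.00544, limma). As for Bak1, the groups were apart in both and in opposite order. The third (1447873_x_at), at 6.34 and 6.25 against 6.50 and 6.45, differed by -0.18 (adjusted p = 0.093, limma) and passed after quantile normalization and after median centring, both at -0.25.

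Bad, Bbc3 and Pmaip1 had no probe set past the threshold (limma, 1 higher, that of Bbc3, at an unadjusted p under 0.05). Bad encodes a BH3-only protein that survival kinases inactivate by phosphorylation, and the differences of its 2 probe sets had 95% confidence intervals of -0.25 to 0.06 and -0.09 to 0.22. The brighter one (1416582_a_at) stood at 8.48 and 8.49 against 8.63 and 8.53. Bbc3, which encodes Puma, a target of p53, stood at 8.05 and 8.03 in IL-10+ and at 7.89 and 7.77 in IL-10- samples, a difference of 0.21 (adjusted p = 0.0592, limma) that passed without IL-10- replicate 3 (0.27, adjusted p = 0.0142) and with dim probe sets filtered out (adjusted p = 0.0422). Pmaip1, which encodes Noxa, a partner of Mcl-1, stood at 10.09 and 10.26 against 9.77 and 10.11. Its groups overlapped, with a difference of 0.23 and a 95% confidence interval of -0.04 to 0.51. IL-10- replicate 3 was the low sample, and the difference was 0.06 without it and 0.41 without IL-10- replicate 4. After quantile normalization the difference passed (0.34, adjusted p = 0.0408, limma).

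**Figure D2:**
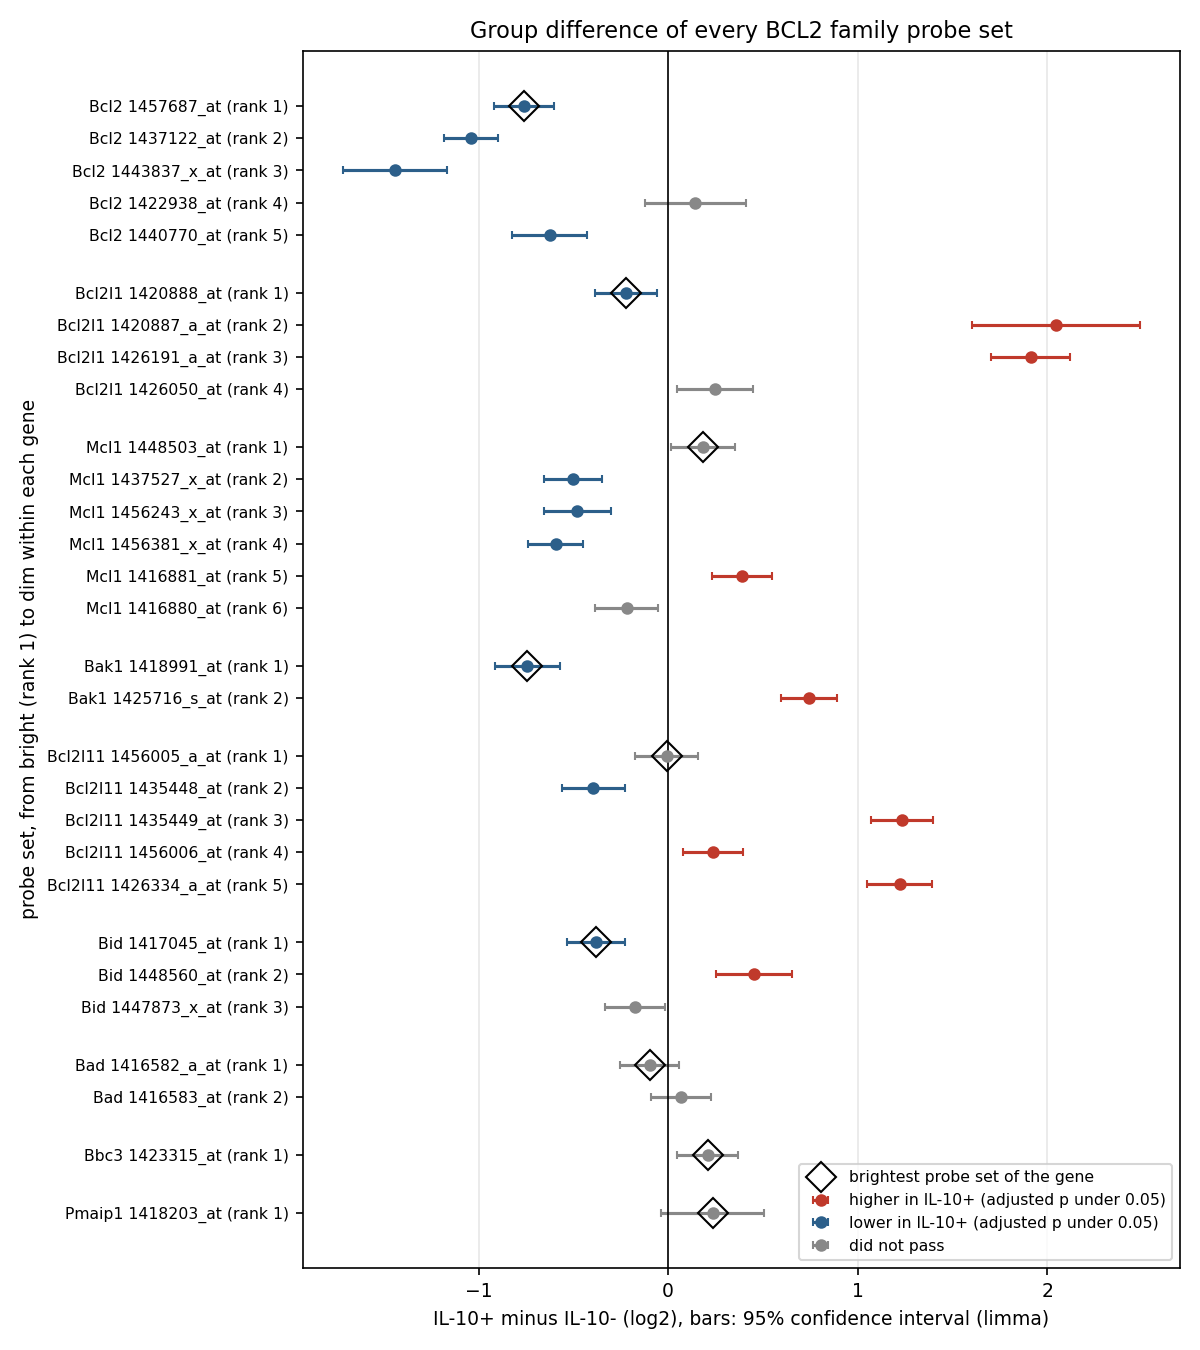
IL-10+ mean minus IL-10- mean (horizontal axis, log2) for each BCL2 family probe set, with 95% confidence intervals from limma and rank 1 of each gene at the top. The brightest probe sets (diamonds) lie between -0.76 and 0.23, while dimmer ones run from -1.44 for Bcl2 to 2.05 for Bcl2l1.

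Since 2 probe sets of a gene sit on the same array, the distance between them does not depend on a shift of the whole array, and whether it differs between the groups can be tested directly. The distance itself has no meaning, since probe sets differ in how strongly they bind, and only its change between the groups is read. For each of 20 dimmer member probe sets, the value of the brightest of the same gene was subtracted within each array, and the differences were compared between the groups with limma over all 16752 such pairs of the array. The distance changed in 15 of 20 pairs, with the dimmer probe set higher against the brightest in IL-10+ cells for 8 and lower for 7, against 30.6% and 9.31% of all pairs. Without IL-10+ replicate 1 or 2 the 7 lower ones became 4 and 3. No test set these shares against each other. Pairs of a gene share its brightest probe set, so they are not separate readings. The 7 lower pairs were of Mcl1, Bcl2 and Bcl2l11 only, and the 8 higher ones of Bcl2, Bcl2l1, Bak1, Bcl2l11 and Bid.

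For Bcl2l1 the distance of 1420887_a_at from the brightest was -1.48 and -1.37 in IL-10+ and -3.41 and -3.97 in IL-10- samples. The change of 2.27 (95% confidence interval 1.89 to 2.65) was the largest among the members, followed by 2.13 for 1426191_a_at (adjusted p = 1.22e-05, limma). For Bak1 the distance went from -2.86 and -2.71 in IL-10- to -1.24 and -1.36 in IL-10+ samples, a change of 1.49 (adjusted p = 2.87e-05, limma). For Bcl2l11 the change was 1.24 for the third probe set, 1.23 for the fifth and -0.39 for the second (adjusted p = 0.00869, limma). The last did not pass without IL-10+ replicate 1 (adjusted p = 0.0767) or 2 (0.0819).

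All 3 Mcl1 probe sets marked x changed against the brightest by -0.69, -0.66 and -0.78, and 1448560_at of Bid by 0.84. For Bcl2 the probe set with overlapping groups (1422938_at) changed against the brightest by 0.90 (adjusted p = 0.0013, limma). Its group difference thus differed from that of the brightest probe set. Those of Bcl2 that fell also differed among themselves, since 1443837_x_at changed by -0.68 against the brightest (adjusted p = 0.00688, limma, and 0.0728 without IL-10+ replicate 2). The 2 probe sets of Bad did not pass (0.16, 95% confidence interval -0.04 to 0.37).

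**Figure D3:**
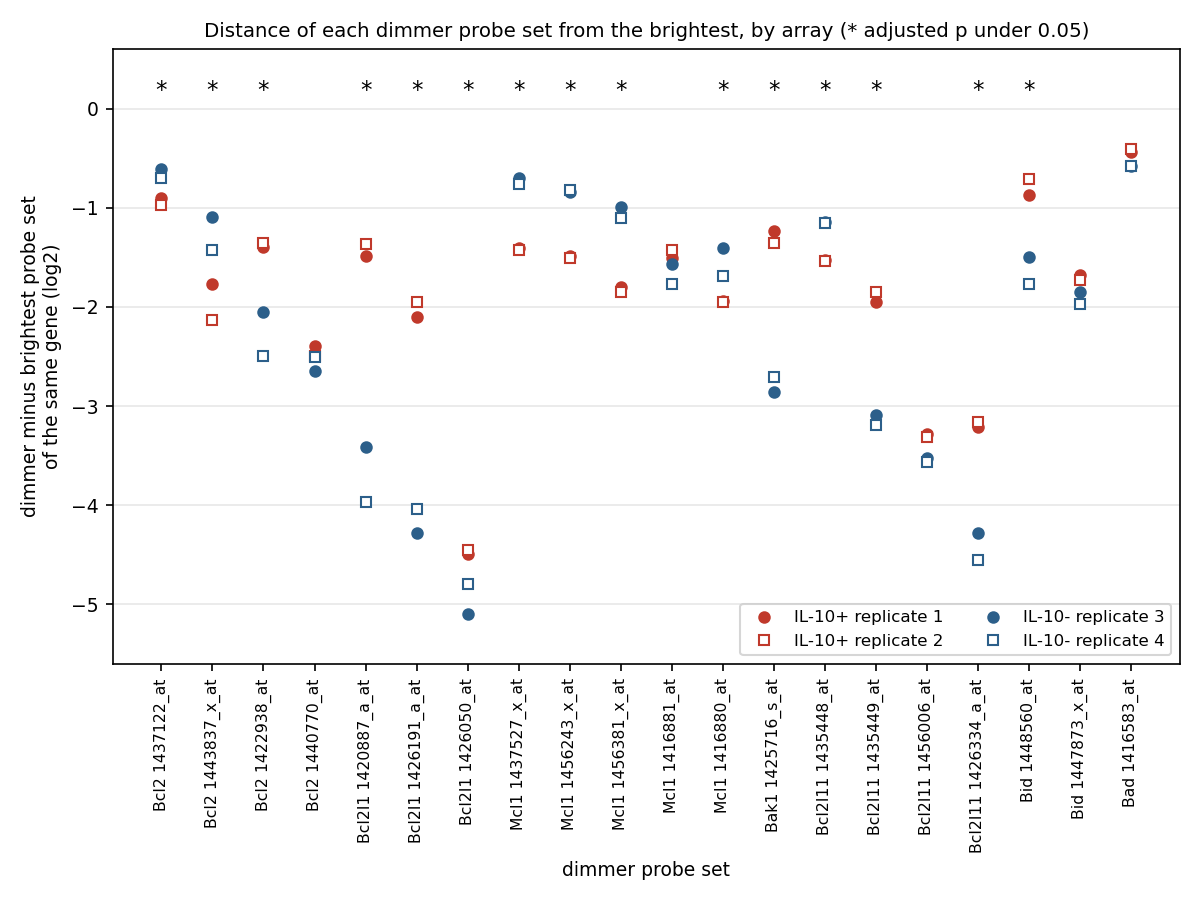
Value of each dimmer BCL2 family probe set minus that of the brightest probe set of the same gene (log2, vertical axis), on each of the 4 arrays, with asterisks where the groups differed. The arrays of the 2 groups lie furthest apart for Bcl2l1 1420887_a_at, by 2.27 between group means, and Mcl1 probe sets marked x lie lower in IL-10+ samples.

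Opposite calls, at least 1 probe set higher and 1 lower, occurred in 5 of the 7 members that have several, namely Bcl2l1, Mcl1, Bak1, Bcl2l11 and Bid. Over all 9010 genes with several probe sets it was 12.0%. The share grew with the number of probe sets, from 5.64% of genes with 2 to 31.1% of genes with 5 and 37.7% of genes with 6 or more, and the 7 members had between 2 and 6. All falls of Mcl1 were in probe sets marked x, and the rise of Bak1 was in a probe set marked s. The only fall of Bcl2l1 passed barely, and did not pass with x and s left out (adjusted p = 0.0509, limma). The share over all genes was likewise counted with these marks kept. When the probe sets of a gene were averaged before the fit, Bcl2 still fell, by 0.74 on the log2 scale, Bcl2l1 rose by 0.996 and Bcl2l11 by 0.46. Mcl1 then fell by 0.20 (adjusted p = 0.0193, limma) and Bbc3, with its single probe set, passed at 0.21 (adjusted p = 0.0332), while Bak1 (0.00), Bid (-0.04), Bad (-0.02) and Pmaip1 (0.23) did not pass. In this reading 3 of 9 genes were higher and 2 lower, against 12.2% and 18.4% of all 18193 genes.

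Other genes of the pathway were read by their brightest probe sets. Of the genes named below, Bmf, Vdac1, Ywhag, Ywhaq and Ywhaz were read by probe sets marked x, and Htra2 and Fbxw7 by ones marked s. Other probe sets of the listed genes are not reported here and may differ from the brightest. In the remaining BCL2 family 1 of 10 measured genes was higher and 0 lower by limma (3 higher and 1 lower at an unadjusted p under 0.05), with a median difference of 0.02, and a range of -0.18 to 0.36. Over the brightest probe sets of all genes 8.37% were higher and 22.9% lower. Of the 10 probe sets of this list 2 lie among the 25% with the highest signal. The riser was Bcl2l12, a distant relative known from the nucleus and cytosol, at 7.67 and 7.67 in IL-10+ and 7.28 and 7.34 in IL-10- samples. Bcl2l2, which encodes the anti-apoptotic Bcl-w, differed by 0.06, and Bmf, a BH3-only gene, by 0.17.

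Of the partners of the family at the mitochondrion 9 of 15 were lower and 0 higher by limma (1 higher at an unadjusted p under 0.05), with a median difference of -0.27, against a median of -0.01 and 22.9% lower over the brightest probe sets of all genes. Of these 15 probe sets 13 lie among the 25% with the highest signal, where the share lower was 44.9%, and so do 14 of the 16 for turnover and sequestering and 10 of the 13 for transcription factors given next. Endog, a mitochondrial nuclease released on permeabilization, fell by 0.89 on the log2 scale (8.31 and 8.24 against 9.15 and 9.18). Opa1, which shapes the inner membrane and its cristae, fell by 0.77, Htra2, a protease that antagonizes inhibitors of apoptosis, by 0.58, and Vdac1, the outer membrane channel, by 0.39. The IL-10+ arrays were below the IL-10- arrays for each of these 4 genes. Without IL-10+ replicate 1 or 2 the 9 became 6.

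Genes that act on turnover or sequestering of members gave 2 of 16 higher and 9 lower, with a median difference of -0.36. Pim1, a cytokine-induced kinase that phosphorylates Bad, stood at 10.74 and 10.88 in IL-10+ and at 8.84 and 8.60 in IL-10- samples, a rise of 2.09 (adjusted p = 1.39e-05, limma). Its relative Pim2 fell, at 9.11 and 9.15 against 10.08 and 10.07. Akt1, another kinase of Bad, fell by 0.62 on the log2 scale. Of the 6 genes for 14-3-3 proteins, which hold phosphorylated Bad in the cytosol, Ywhab, Ywhae, Ywhag and Ywhaq fell, by 0.38 to 0.53, and Ywhah (0.22) and Ywhaz (-0.12) did not pass. Usp9x, the deubiquitinase that stabilizes Mcl-1, rose by 0.44, and Fbxw7, a ubiquitin ligase subunit that targets it, fell by 0.42. Dynll1 and Dynll2, light chains that hold Bim and Bmf, fell by 0.35 and 0.51.

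Among 13 measured transcription factors known to act on these genes, 1 rose and 7 fell, with a median difference of -0.27, and without IL-10+ replicate 1 or 2 only 4 fell. Stat5b, which carries IL-2 signals to Bcl2 and Bcl2l1, stood at 8.60 and 8.67 in IL-10+ and at 9.92 and 9.98 in IL-10- samples, a fall of 1.32 on the log2 scale (adjusted p = 2.02e-05, limma). Stat5a fell by 0.75. Foxo1, a factor of resting T-cells, fell by 1.02 (9.90 and 9.88 against 10.88 and 10.94), and Foxo3, known to activate Bcl2l11 and Bbc3, by 0.33. The FOXO core is marked in the promoters of Bcl2l11 and Bbc3 printed before, and a link between these matches and the levels of the factors was not tested. Both groups of arrays were apart for Stat5b, Stat5a, Foxo1 and Foxo3. Rel, an NF-kB subunit, rose by 0.44.

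**Figure D4:**
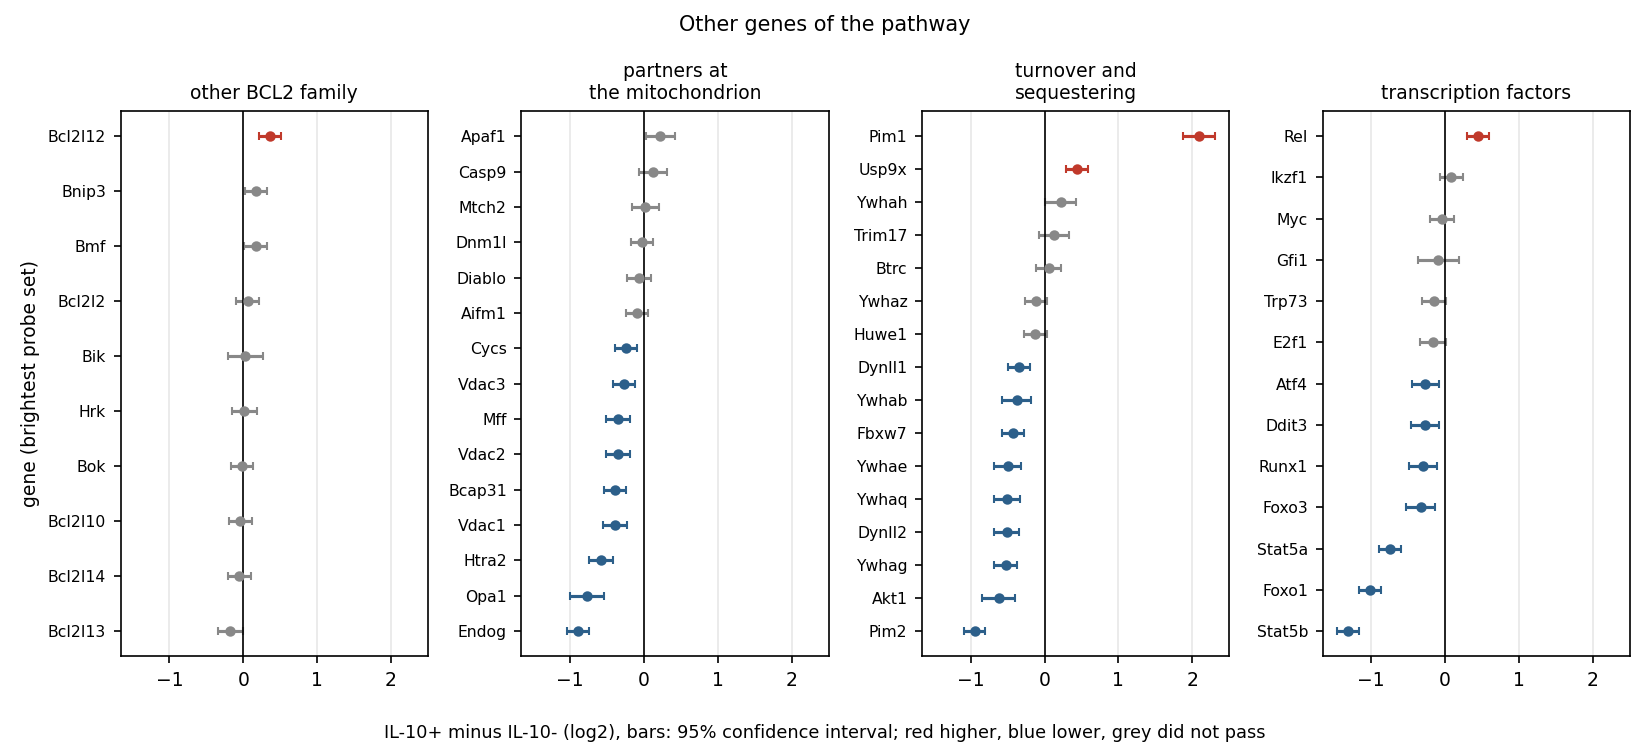
IL-10+ mean minus IL-10- mean (horizontal axis, log2) for the brightest probe set of each gene in 4 lists, with 95% confidence intervals from limma. Pim1 stands apart at 2.09, the other BCL2 family genes lie between -0.18 and 0.36, and most partners and transcription factors lie below 0.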

How the data were processed

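The authors extracted RNA with TRIZOL, hybridized 1 array per sample and applied variance stabilization (R, Bioconductor) to the array intensities. How probes were summarised into probe sets is not given in the sources used here. The deposited values are 1 per probe set and array and were read as log2, since the highest, 14.42, would as a natural log exceed that of 65535, the top of a 16-bit scanner (11.09). Variance stabilization compresses differences of dim probe sets.

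With 64 control probe sets left out, groups were compared over 45037 probe sets by lmFit and eBayes of limma 3.58.1 (R 4.3.3, two-sided, p-values adjusted by Benjamini-Hochberg), with 2 residual and 5.44 prior degrees of freedom. The step was tested on simulated data. With 2 arrays against 2, an exact test of 1 value cannot go below p = 0.333, and the number of arrays limits the precision. Gene names came from the platform annotation (34945 probe sets with 1 gene, 932 with several and not used, 9160 unlisted here), and 0 symbols changed on matching to RefSeq. In the lists the brightest probe set represents a gene.

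All members, with all their probe sets, and of each list up to 4 passing genes by size and further genes by role were named. Those named by role were chosen after their values were seen: Bcl2l2, Bmf, the 14-3-3 genes other than Ywhag, Usp9x, Fbxw7, Dynll1, Dynll2 and Foxo3. Members, lists and tests were chosen with earlier results of these data known. The alternatives were quantile normalization, median centring, a filter on dim probe sets, a prior with a trend or a robust one, each array left out, the other log base, the threshold of the methods, averaging a gene's probe sets, and no suffixes x or s. Plots were made in matplotlib 3.10.9 (Python 3.11.15).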

Additional observations from a re-analysis of the deposited data

Results flagged for a closer look

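Bacterial transcripts (thr, phe, lys and dap) are added to the RNA and lie outside the comparison of genes. The IL-10+ arrays exceeded the IL-10- arrays by 1.11 on the log2 scale (median of 4) in their 5' probe sets, by 0.81 in the middle ones and by 0.09 in the 3' ones. These are values without a test, and their part in the opposite calls of BCL2 family probe sets was not tested.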

How the results depend on the processing

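No paired analysis was possible because the labels number the arrays 1 and 2 in IL-10+ and 3 and 4 in IL-10- samples and share no number. Of the 19 member probe sets that passed, 17 kept their direction and their side of the threshold under every alternative run for them, the exceptions being the brightest of Bcl2l1 and the fourth of Bcl2l11. Of the 15 within-gene distances that passed, 10 did so. The threshold of the methods, the other log base and averaging were not among the alternatives run for single probe sets or distances. Probe sets marked x or s were not run in the setting without these suffixes. With 1 array of a group left out, the lone array is assumed to vary like the others.

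Leaving out each array in turn gave 7 to 11 higher and 10 to 12 lower member probe sets, 0 to 2 higher and 3 to 4 lower brightest ones, and 7 to 10 higher and 3 to 7 lower within-gene distances. For the lists it gave 1 higher and 0 to 1 lower in the other BCL2 family, 0 to 1 higher and 6 to 9 lower among partners at the mitochondrion, 2 to 3 higher and 7 to 9 lower for turnover and sequestering, and 1 higher and 4 to 8 lower among transcription factors. At the threshold of the methods 4 member probe sets were higher and 2 lower, and 0 brightest ones were lower. Read as natural logs the threshold gave 5 and 4, and 2 brightest ones lower. Without the suffixes x and s 6 member probe sets were lower, a setting that tests fewer of them. Quantile normalization gave 2 higher brightest probe sets, 2 higher genes in the other BCL2 family and 1 higher partner, the filter on dim probe sets 1 higher brightest probe set, median centring 1 lower gene in the other BCL2 family, and averaging probe sets 3 higher and 2 lower genes. The cause was not tested.

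The values whose sign changed passed neither as reported nor in the setting that changed it. Leaving out each array in turn gave -0.036 to 0.32 for Bcl2 1422938_at and -0.079 to 0.062 for the brightest of Bcl2l11. The latter was 0.15 after quantile normalization. Bad 1416583_at was at -0.0092 after median centring, and the distance of Bcl2 1440770_at at -0.014 after quantile normalization.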
